A study of Mus musculus with 6 samples.

Results

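A set of 10 protease inhibitor genes was followed in alveolar macrophages of mice with loxP-flanked Pex5, with or without a Cre recombinase: the whey acidic protein genes Wfdc10, Wfdc17, Wfdc21 and Slpi, the clade B serpin genes Serpinb1a, Serpinb6a, Serpinb6b, Serpinb8 and Serpinb9, and the cystatin gene Cst3. They were taken by symbol, 10 of the 25664 genes in the deposited count table, and they were picked with the contrast between the genotypes already known. Their own values are therefore given as a description and without p-values.

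The study isolated alveolar macrophages from lavage fluid and sequenced RNA from 50000 sorted cells per sample as single-end reads of 100 bp. Of the libraries, 3 came from Vav1cre/+ Pex5fl/fl mice, called Vav-Cre here, and 3 from Pex5fl/fl mice, called control, whose titles read WT. Every mouse thus carried loxP-flanked Pex5 alleles, and only the Vav-Cre mice carried the recombinase. Vav1 drives Cre across the blood cell lineages and not in macrophages alone, so other blood cells of these mice carry the recombinase too. Pex5 encodes the receptor that imports most enzymes into peroxisomes. The labels used here name no age, sex or number of mice per library. A p-value here therefore reflects the spread among libraries, part of which may be technical.

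Proteases cut other proteins, and inhibitors bind them to limit where and for how long they act. Whey acidic proteins are small secreted proteins held in shape by disulfide bonds between cysteines, and SLPI, the best known of them, blocks neutrophil elastase and cathepsin G on the airway surface. Clade B serpins stay mostly inside the cell and offer the protease a bait loop near their C-terminus. Once the loop is cut, the serpin changes shape and traps the protease. Cystatin C, the product of Cst3, is a secreted inhibitor of cysteine cathepsins, the proteases of lysosomes.

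The libraries held between 13325609 and 19413838 counts, and between 13200 and 13840 genes with at least 1 count. Levels are CPM, a gene's counts relative to the library total, with totals scaled by trimmed mean of M values (TMM), n = 3 per group and errors as SD. Vav-Cre replicate 2 stood apart, with a scaling factor of 1.34 against 0.899 to 1.03 in the other libraries. It was the lowest of its group for all 9 members that could be tested, against 5 of the 9 without the scaling. Pex5 itself was counted at 31.6 ± 1.71 CPM in the control and 32.4 ± 3.45 CPM in the Vav-Cre libraries. A count over the whole gene does not check the genotype labels, because the labels do not name the floxed exons. Since the RNA is from bulk samples, fewer cells that express a gene and less RNA per cell cannot be told apart.

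Differences are log2 fold changes, Vav-Cre over control, with their standard errors from edgeR's quasi-likelihood fit. A gene is called where its Benjamini-Hochberg adjusted p over all genes tested was under 0.05. Of the 11011 genes tested, 358 were called, which is 3.25%, with 192 higher (1.74%) and 166 lower (1.51%) in the Vav-Cre libraries. Of the 10 members 9 passed the filter on low counts, and 3 of these were called: Wfdc17 and Serpinb6b higher, Wfdc10 lower. Because the members were picked on this contrast, nothing is read from that count. The libraries of the groups did not overlap for 4 of the 9, the called genes and Serpinb6a, beside 26.1% of all genes tested. The plot of each member by library shows these levels.

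**Figure D1:**
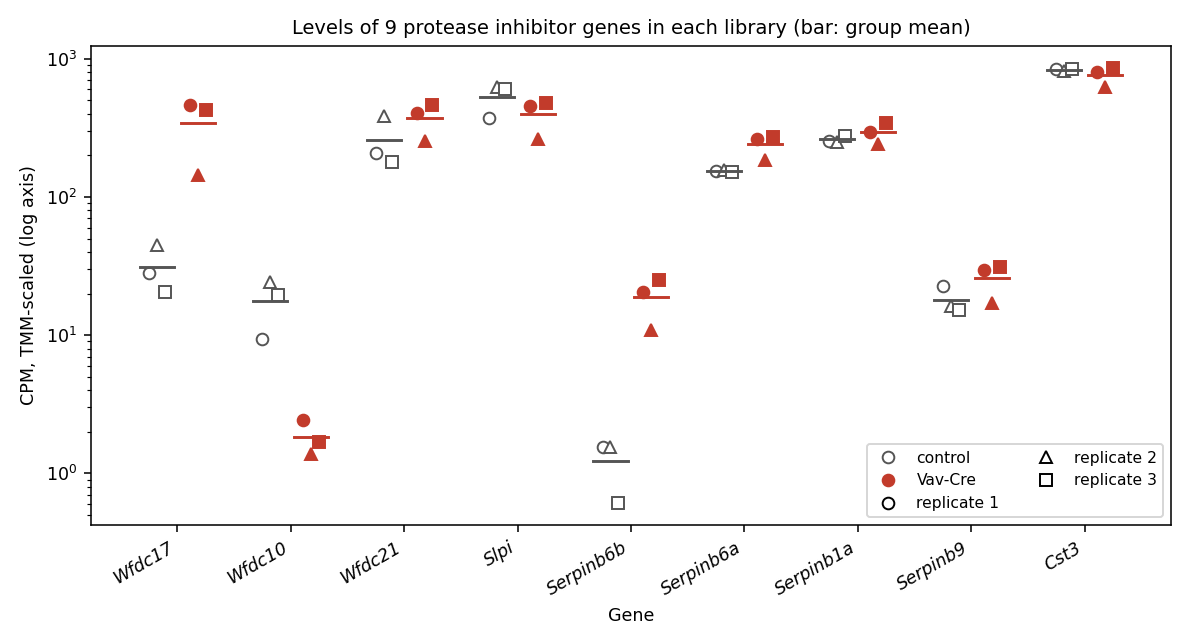
Level of each tested member in each library, in TMM-scaled CPM on a log axis, with control and Vav-Cre libraries apart and a bar at each group's mean. The groups are apart for Wfdc10, Wfdc17, Serpinb6b and Serpinb6a, and overlap for the other 5 genes.

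Among the secreted whey acidic proteins, the coding sequences of Wfdc17, Wfdc10 and Wfdc21 are shown to let the family's cysteines be seen. These sequences differ in length and in their number of cysteine codons. Capitals mark cysteine codons in the reading frame, and the sequences are from GENCODE mouse release 21 on GRCm38. Wfdc17 and Wfdc21 are given from start to stop codon and Wfdc10 from codon 30 to codon 84.
Wfdc17: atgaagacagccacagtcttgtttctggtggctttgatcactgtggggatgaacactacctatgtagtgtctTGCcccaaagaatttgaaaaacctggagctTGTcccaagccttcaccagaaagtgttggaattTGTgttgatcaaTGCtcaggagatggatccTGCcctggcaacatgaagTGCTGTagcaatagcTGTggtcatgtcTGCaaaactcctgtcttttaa
Wfdc10: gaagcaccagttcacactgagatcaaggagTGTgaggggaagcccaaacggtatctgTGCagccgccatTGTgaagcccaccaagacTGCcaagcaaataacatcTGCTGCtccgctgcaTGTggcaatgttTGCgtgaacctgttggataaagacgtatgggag
Wfdc21: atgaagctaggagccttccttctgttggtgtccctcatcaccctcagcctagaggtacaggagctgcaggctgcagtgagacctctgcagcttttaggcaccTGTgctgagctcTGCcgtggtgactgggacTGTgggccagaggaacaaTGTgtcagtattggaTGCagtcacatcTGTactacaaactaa
Wfdc17 is encoded in 76 codons with 9 cysteines, Wfdc10 in 124 codons with 8, and Wfdc21 in 63 codons with 6. Wfdc17 and Wfdc10 both hold a pair of adjacent cysteine codons, which Wfdc21 lacks. In end-to-end alignments with gaps counted as columns, the coding sequence of Wfdc17 was identical to that of Wfdc21 at 114 of 233 columns (48.9%). With that of Wfdc10 it was identical at 154 of 381 columns (40.4%). The coding sequences of Wfdc17, Wfdc21 and Wfdc10 have 231, 192 and 375 bases. Gaps from unequal length lower such shares, so they do not tell which gene is closer to Wfdc17.

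Wfdc17, also known as activated macrophage WAP protein, is a small secreted protein that activated macrophages make. It lies on chr11:83703991-83706268, plus strand. The control libraries held 28.0, 45.0 and 20.4 CPM, a mean of 31.1 ± 12.6. In the Vav-Cre libraries it stood at 459, 144 and 423 CPM, a mean of 342 ± 172. Every Vav-Cre library was above every control library, and replicate 2 was the lowest of the 3. The log2 fold change was 3.45 ± 0.46 (SE), with a 95% interval of 2.41 to 4.50. Without control replicate 1 the gene was no longer called.

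Wfdc10, a whey acidic protein gene of chr2:164656046-164657368, plus strand, ran the other way. Its level was 9.39, 24.3 and 19.4 CPM in the control libraries and 2.42, 1.39 and 1.70 CPM in the Vav-Cre libraries. The means were 17.7 ± 7.59 and 1.84 ± 0.533 CPM, and the Vav-Cre libraries all lay below the lowest control library. The change was a fall of 9.63-fold, a log2 fold change of -3.31 ± 0.38 (SE) with a 95% interval of -4.17 to -2.45. These values rest on 31, 33 and 30 counts in the Vav-Cre libraries and 120, 424 and 287 in the control libraries. The gene stayed called without any single library.

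Wfdc21, another small secreted whey acidic protein, lies 42.9 kb beyond the start of Wfdc17 on the same strand, at chr11:83746940-83752642. It was counted at 208, 386 and 177 CPM in the control and 402, 253 and 462 CPM in the Vav-Cre libraries, means of 257 ± 113 and 372 ± 107. The ranges overlapped, and the log2 fold change of 0.53 ± 0.31 (SE) was not called. Its 95% interval, -0.18 to 1.25, leaves room for no change as well as for a rise. With library totals in place of the scaled totals it was called higher.

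Slpi, on chr2:164354070-164389095, minus strand, was the most counted whey acidic protein gene in the control libraries. It stood at 370, 628 and 599 CPM in the control and 453, 263 and 476 CPM in the Vav-Cre libraries, means of 532 ± 141 and 397 ± 117. The groups overlapped. The log2 fold change was -0.42 ± 0.27 (SE), with a 95% interval of -1.04 to 0.19, and was not called.

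The make-up of the family is given beside its sum as a description, since all 4 of its tested genes were picked with the contrast known. All whey acidic protein genes together gave 839 ± 235 CPM in the control and 1114 ± 392 CPM in the Vav-Cre libraries, with overlapping ranges. Shares of the family's counts do not depend on how the libraries are scaled. Wfdc17 made up 4.55%, 4.15% and 2.50% of them in the control libraries and 34.8%, 21.8% and 31.0% in the Vav-Cre libraries. Slpi went from 63.8% ± 8.37 to 36.3% ± 2.92 of the family's counts, and Wfdc21 from 30.4% ± 7.55 to 34.2% ± 3.85. Wfdc10 went from 2.05% ± 0.457 to 0.173% ± 0.0436. The shares of Slpi, Wfdc17 and Wfdc10 did not overlap between the groups, while those of Wfdc21 did. Shares of a common total are tied to each other, so a larger share of Wfdc17 leaves less for the rest. The level of Slpi itself overlapped between the groups and was not called.

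**Figure D2:**
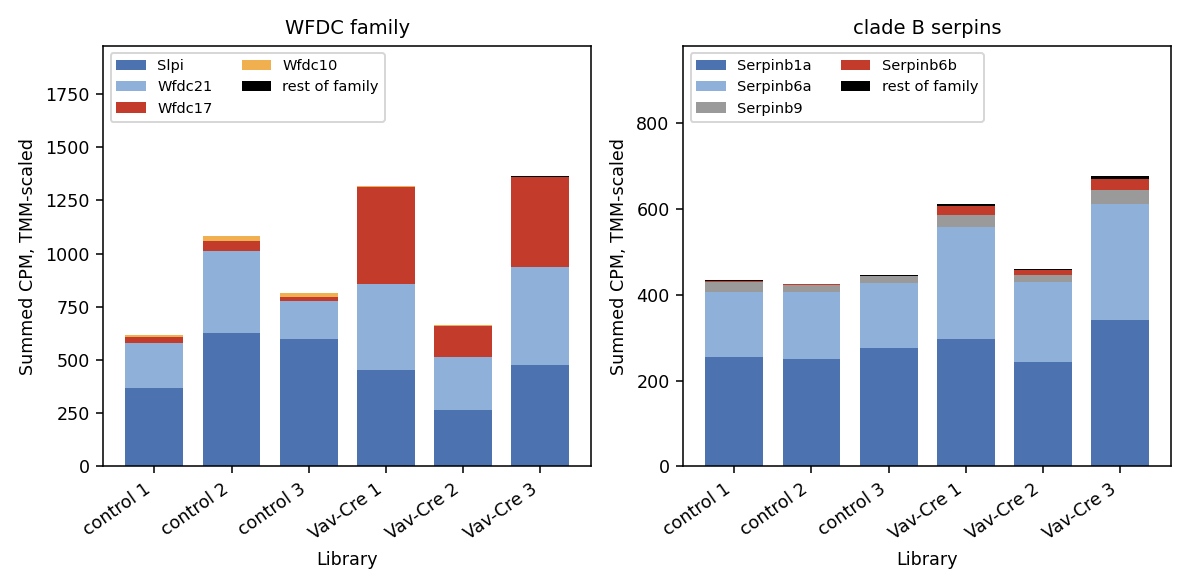
Summed level of the whey acidic protein family (WFDC) and of the clade B serpins in TMM-scaled CPM, 1 stacked bar per library with each gene as a coloured part. Wfdc17 takes 2.50% to 4.55% of its family in the control and 21.8% to 34.8% in the Vav-Cre libraries, and Serpinb6b 0.136% to 0.364% and 2.37% to 3.72% of its family.

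Turning to the serpins, the stretch that holds the bait loop is shown for Serpinb6a and Serpinb6b, neighbours in sequence that differed in the size of their change, and for Serpinb1a and Serpinb1c. Lower case marks the hinge with which the loop begins and the conserved end after the loop. Capitals mark the codons between them, where the loop differs between serpins. Sequences are from the same GENCODE release.
Serpinb6a: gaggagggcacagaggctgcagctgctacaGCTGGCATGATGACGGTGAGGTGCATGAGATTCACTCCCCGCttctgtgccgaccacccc
Serpinb6b: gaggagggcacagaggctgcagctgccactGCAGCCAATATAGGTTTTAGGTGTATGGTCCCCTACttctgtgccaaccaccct
Serpinb1a: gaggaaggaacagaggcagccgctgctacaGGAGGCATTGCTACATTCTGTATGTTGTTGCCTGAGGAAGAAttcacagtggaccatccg
Serpinb1c: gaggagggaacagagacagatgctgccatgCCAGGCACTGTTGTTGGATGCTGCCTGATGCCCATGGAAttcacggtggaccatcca
The capitals span 14 codons in Serpinb6a, 12 in Serpinb6b, 14 in Serpinb1a and 13 in Serpinb1c. Over their whole coding sequences Serpinb6a and Serpinb6b were identical at 81.2% of alignment columns, gaps counted, and Serpinb1a and Serpinb1c at 88.2%. None of the 10 members shared a stretch of 100 bases of its longest transcript with another gene, so an exact full-length read could be told apart between these copies.

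Serpinb6b, a relative of Serpinb6a whose product is known to inhibit granzyme A, lies on chr13:32965209-32979067, plus strand. It was near the filter in the control libraries, at 1.56, 1.55 and 0.608 CPM, from 20, 27 and 9 counts. The Vav-Cre libraries held 20.6, 10.9 and 25.1 CPM, from 263, 259 and 445 counts. All 3 stood above the control libraries, and the means were 1.24 ± 0.547 and 18.9 ± 7.28 CPM. The log2 fold change was 3.91 ± 0.41 (SE), with a 95% interval of 2.98 to 4.85, the largest rise among the members. It stayed called without any single library.

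Serpinb6a, an intracellular inhibitor of cathepsin G on chr13:33917918-34002794, minus strand, was far more abundant. Its level was 153, 157 and 151 CPM in the control libraries, which lay close together, and 260, 186 and 272 CPM in the Vav-Cre libraries. The means were 154 ± 2.70 and 239.5 ± 46.4 CPM, and the groups did not overlap. Its log2 fold change was 0.64 ± 0.15 (SE), with a 95% interval of 0.29 to 0.99, and was not called. Without Vav-Cre replicate 2 it was 0.81 and was called. It was also called with DESeq2 (0.65), with unscaled library totals (0.77) and without the filter on low counts (0.64). On the opposite strand Nqo2 covers 14.1% of the exon bases of Serpinb6a, the antisense gene 1110046J04Rik 10.8% and Ripk1 4.46%, and without a stated strand setting of the counting their reads cannot be told apart there. Nqo2 itself gave a log2 fold change of 0.18 ± 0.11 (SE). Of the counts of Serpinb6a and Serpinb6b together, Serpinb6b made up 0.797% ± 0.345 in the control and 7.10% ± 1.49 in the Vav-Cre libraries.

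Serpinb1a, an inhibitor of neutrophil elastase, proteinase 3 and cathepsin G on chr13:32842092-32851185, minus strand, was the most counted clade B serpin gene. It stood at 255, 250.1 and 277 CPM in the control and 297, 243 and 341 CPM in the Vav-Cre libraries, and the ranges overlapped. The log2 fold change of 0.17 ± 0.15 (SE) was not called, with a 95% interval of -0.16 to 0.51. As a share of clade B counts it went from 59.8% ± 1.88 to 50.6% ± 2.16, with no overlap, while Serpinb6a went from 35.3% ± 1.44 to 41.1% ± 1.24.

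Serpinb9, the inhibitor of granzyme B, lies on chr13:33003250-33017957, plus strand. It was counted at 22.8, 16.3 and 15.3 CPM in the control and 29.6, 17.1 and 31.4 CPM in the Vav-Cre libraries. The replicate 2 library of the Vav-Cre group fell inside the control range. This gave a log2 fold change of 0.52 ± 0.24 (SE), with a 95% interval of -0.03 to 1.08, which was not called. Without that library it was 0.77 and was called.

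Serpinb8, an inhibitor of furin-like proteases on chr1:107590006-107610484, plus strand, had 2, 1 and 0 counts in the Vav-Cre libraries and 0, 0 and 1 in the control libraries. No library passed the floor of 3 counts, which is 0.155 to 0.225 CPM of the unscaled totals, so no fold is given. Reads carried no molecular identifiers, so floors and intervals on counts cover counting error only.

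Cst3, on chr2:148871722-148875692, minus strand, stood at 848, 809 and 838 CPM in the control libraries. The Vav-Cre libraries held 799, 626 and 859 CPM, and the ranges overlapped. Its log2 fold change was -0.13 ± 0.17 (SE), with a 95% interval of -0.51 to 0.25. Its sign turned, to 0.0083, without Vav-Cre replicate 2, and to 0.0089 with unscaled library totals.

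Levels of different genes are compared per kilobase of exon, with the exons of all annotated transcripts of a gene merged. For Serpinb6a this gives 5409 bases, against 2191 in its longest transcript, so its place in the order depends on this choice of length. On that scale, CPM per kilobase, the order in the control libraries was Cst3 at 657 ± 16.3, Wfdc21 at 593 ± 260, Slpi at 451 ± 120, Serpinb1a at 113 ± 6.11, Wfdc17 at 58.4 ± 23.6, Wfdc10 at 38.5 ± 16.5, Serpinb6a at 28.4 ± 0.499, Serpinb9 at 5.18 ± 1.17 and Serpinb6b at 0.548 ± 0.242. Cst3 and Wfdc21 were within their spread of each other, and so were Wfdc21 and Slpi, Wfdc17 and Wfdc10, and Wfdc10 and Serpinb6a. In the Vav-Cre libraries Wfdc17 reached 642 ± 323 CPM per kilobase, beside 858 ± 247 for Wfdc21, 601 ± 95.5 for Cst3 and 337 ± 99.0 for Slpi. Wfdc10 was at 4.0 ± 1.16 and Serpinb6b at 8.34 ± 3.22 CPM per kilobase, near the 7.45 ± 2.23 of Serpinb9.

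The wider families were mostly silent in these cells. Of the 72 genes of the whey acidic protein, clade B serpin and cystatin lists found in the table, 50 had no count in any library and 13 were tested. Among the whey acidic protein genes 4 of 23 were tested, and all 4 are members. Wfdc18 had 25 counts over the Vav-Cre and 3 over the control libraries and did not pass the filter. Its coding sequence is identical to that of Wfdc17 at 79.7% of alignment columns, gaps counted.

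Among the clade B serpins 7 of 27 genes were tested, and 4 of the 7 are members picked with the contrast known. Of the 7, 2 were called, both higher, beside 3.25% of all genes called. The median log2 fold change was 0.64, which is the value of the member Serpinb6a, beside -0.0008 over all genes tested. Because of how the members were picked, nothing is read from this count or median. Serpinb1c was the call outside the members, with 108 counts over the Vav-Cre libraries and 2 over the control libraries. That is a ratio of 44.8, with a 95% counting interval of 12.1 to 375. The gene passed the filter only through the Vav-Cre libraries, so its fitted log2 fold change of 5.33 ± 1.12 (SE, adjusted p = 0.0409) depends on the prior count. Serpinb1c lost its call without Vav-Cre replicate 1 (adjusted p = 0.0989), Vav-Cre replicate 3 (0.0650), control replicate 1 (0.148), control replicate 2 (0.136) or control replicate 3 (0.108), each with edgeR. Without Vav-Cre replicate 2, 4 clade B genes were called, and without any other single library 1 was. Serpinb1b (0.48 ± 0.39, adjusted p = 0.561) and Serpinb12 (0.66 ± 0.52, adjusted p = 0.541) were not called and stood near 1 CPM. Summed over the list, clade B serpins gave 435 ± 10.3 CPM in the control and 582 ± 112 CPM in the Vav-Cre libraries, without overlap. The lowest Vav-Cre library held 459 CPM, beside 446 CPM in the highest control library. Most of that sum came from the members Serpinb1a and Serpinb6a, at 59.8% and 35.3% in the control and 50.6% and 41.1% in the Vav-Cre libraries. The sum is therefore a description of picked genes, and nothing is read from it for the family.

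Of the 22 cystatin genes in the table only Cst3 and Cstb were tested, and 0 were called by edgeR, with 1 at an unadjusted p under 0.05 and 1 called by DESeq2. Over all 11011 genes tested, 2078 had an unadjusted edgeR p under 0.05, and DESeq2 called 755. Cstb, an inhibitor of cathepsins inside the cell, stood at 348 ± 22.4 and 572 ± 191 CPM, a log2 fold change of 0.72 ± 0.24 (SE, adjusted p = 0.157). Without Vav-Cre replicate 2, 1 cystatin gene was called. The plot of the tested inhibitor genes by family sets these differences side by side.

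**Figure D3:**
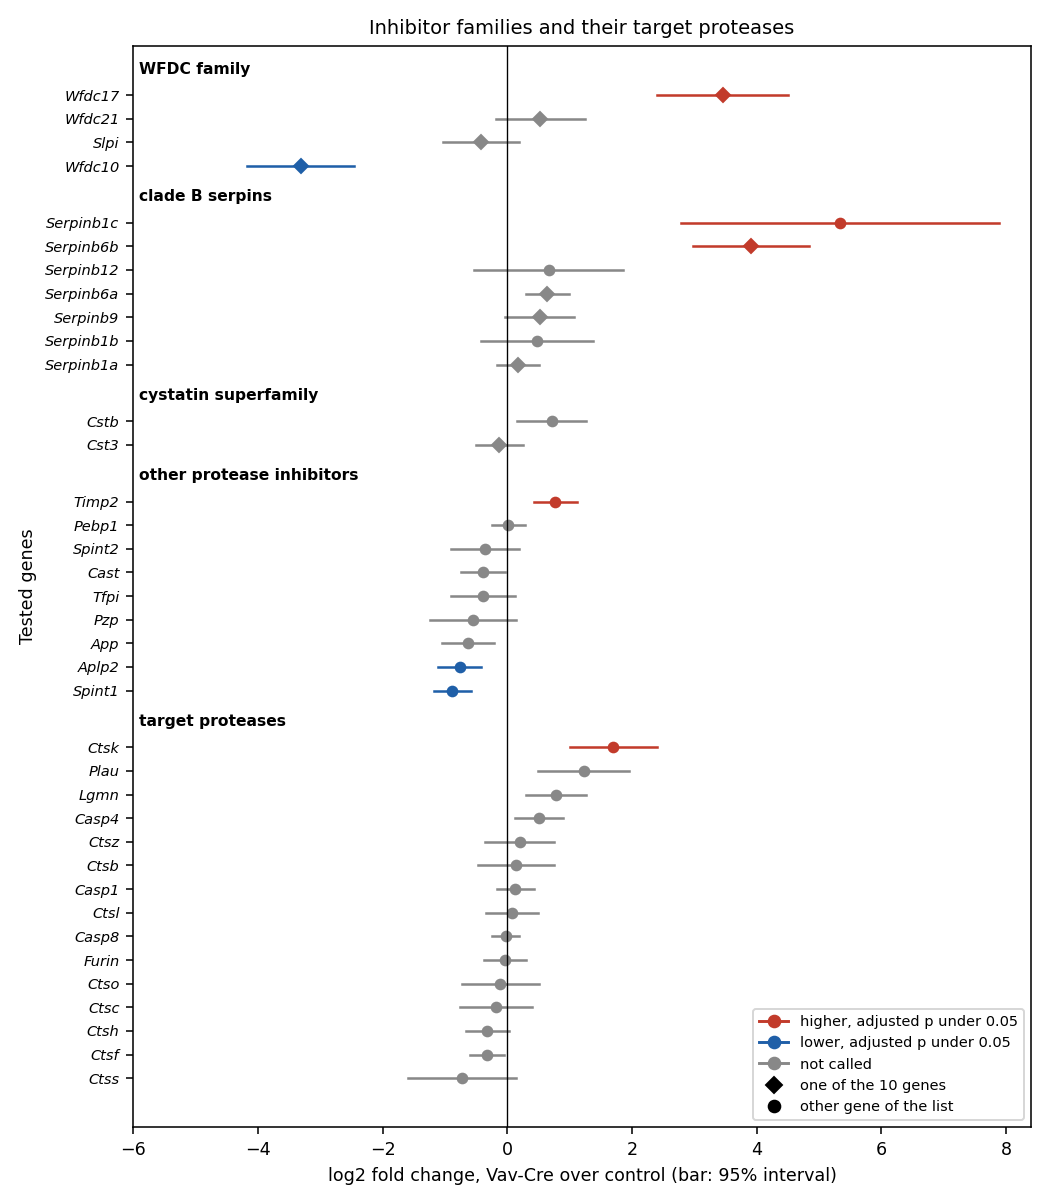
Log2 fold change, Vav-Cre over control, with its 95% interval, for every tested gene of the whey acidic protein, clade B serpin, cystatin and other inhibitor lists and of the target proteases, with called genes in colour. Wfdc17, Serpinb6b and Serpinb1c lie farthest above 0 and Wfdc10 farthest below.

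Among inhibitors of other families, 9 genes were tested, of which 1 was called higher and 2 lower, with a median of -0.39. The summed level of the list was 2217 to 2747 CPM in the control and 1417 to 1670 CPM in the Vav-Cre libraries, without overlap. Most of that sum in both groups came from App and Aplp2, so it says little about the other genes of the list. Spint1, a membrane inhibitor of the Kunitz type, fell from 98.6 ± 14.1 to 53.7 ± 4.95 CPM (-0.88 ± 0.13, adjusted p = 0.0128). It lost its call with unscaled library totals (adjusted p = 0.0603) and with the replicate number as a block (0.0758), and kept it without any single library. Aplp2, a membrane protein with a Kunitz domain, fell from 831 ± 87.9 to 489 ± 44.3 CPM (-0.76 ± 0.15, adjusted p = 0.0355). Timp2, an inhibitor of matrix metalloproteinases, rose from 12.6 ± 1.35 to 21.5 ± 3.41 CPM (0.77 ± 0.15, adjusted p = 0.0345). Aplp2 was not called in 5 of 6 fits that each left out 1 library (all but that without Vav-Cre replicate 2), nor was Timp2 (all but that without Vav-Cre replicate 1), with adjusted p up to 0.159 and 0.138. App, the most counted gene of the list, stood at 1247 ± 215 and 807 ± 80.2 CPM without a call (adjusted p = 0.113).

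The proteases that these inhibitors are known to bind were then set beside them. Of the 25 listed, 7 had no count in any library, among them Elane, Ctsg, Gzma and Gzmb, which encode neutrophil elastase, cathepsin G and granzymes A and B. Prtn3, which encodes proteinase 3, had 1 count in all, in control replicate 1. Of the 15 tested, 1 was called: Ctsk, the gene of the collagen-cutting cathepsin K, rose from 681 ± 67.9 to 2217 ± 847 CPM (1.70 ± 0.30, adjusted p = 0.0239). Its call was lost without Vav-Cre replicate 1 (adjusted p = 0.0893) or control replicates 1 (0.130), 2 (0.0831) or 3 (0.0986), and without Vav-Cre replicate 2 the list had 3 calls. Lgmn, the gene of legumain (0.78 ± 0.21, adjusted p = 0.0902), and Plau, the gene of urokinase (1.23 ± 0.32, adjusted p = 0.0855), did not overlap between the groups but were not called. Ctss, the gene of cathepsin S and the most counted target, stood at 9192 ± 1651 and 5570 ± 2406 CPM, with overlap and no call (adjusted p = 0.339).

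Wfdc17 and Serpinb6b both sit in gene clusters, and the genes around the 3 called members were read out to 500 kb on either side, a window chosen after the values had been seen. Around Wfdc17, 2 of 13 tested genes that are not members were called: the chemokine genes Ccl3, 56.1 kb before its start (2.88 ± 0.43, adjusted p = 0.0128), and Ccl4, 41.4 kb before it (2.29 ± 0.46, adjusted p = 0.0347). The call of Ccl3 was lost without control replicate 1 (adjusted p = 0.0681). That of Ccl4 held only without Vav-Cre replicate 2, and reached an adjusted p of 0.140 without control replicate 1. Ccl4 stood at 0.325 ± 0.128 CPM in the control and 1.69 ± 0.648 CPM in the Vav-Cre libraries and passed the filter on low counts only through the latter. Wfdc21, 42.9 kb to the other side, was not called. Around Serpinb6b, Serpinb1c was called, 83.8 kb before its start, while Serpinb9, 38.0 kb after it, and Serpinb1a, 123 kb before it, were not. Around Wfdc10, Pltp (-0.69 ± 0.13, adjusted p = 0.0311) was lower and Neurl2 (1.0 ± 0.22, adjusted p = 0.0449) higher out of 17 tested genes that are not members. Neurl2 lost its call without any 1 of the 6 libraries, and Pltp without any but Vav-Cre replicate 2.

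**Figure D4:**
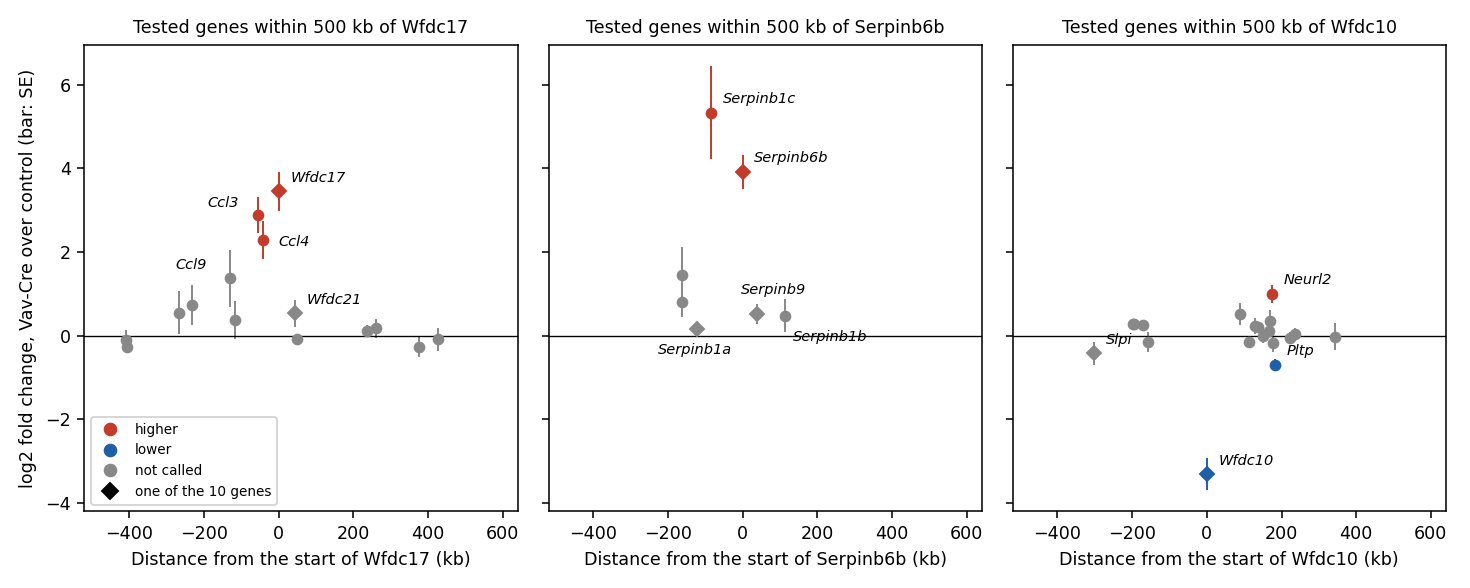
Log2 fold change with its standard error for tested genes against their distance in kb from the start of Wfdc17, Serpinb6b or Wfdc10, with members as diamonds and called genes in colour. Ccl3 and Ccl4 lie just before Wfdc17, and Serpinb1c just before Serpinb6b, while most other neighbours were not called.

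The stretches before the starts of the 3 called members are shown because these genes differed most between the genotypes. They are from RefSeq on GRCm38.p6, are read in the direction of the gene, and leave out bases that belong to an exon. They are chr11:83703806-83703990 for Wfdc17, chr13:32965011-32965208 for Serpinb6b and chr2:164655796-164656045 for Wfdc10, all on the plus strand. Capitals mark matches to GAGGAAG, a sequence that the macrophage factor PU.1 can bind.
Wfdc17: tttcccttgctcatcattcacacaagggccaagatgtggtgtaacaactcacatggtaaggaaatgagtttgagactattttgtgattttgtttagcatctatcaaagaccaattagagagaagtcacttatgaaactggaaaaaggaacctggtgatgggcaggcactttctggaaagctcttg
Serpinb6b: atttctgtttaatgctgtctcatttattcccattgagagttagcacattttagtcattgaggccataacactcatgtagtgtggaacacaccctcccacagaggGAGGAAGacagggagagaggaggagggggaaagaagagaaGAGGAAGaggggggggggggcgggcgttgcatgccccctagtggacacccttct
Wfdc10: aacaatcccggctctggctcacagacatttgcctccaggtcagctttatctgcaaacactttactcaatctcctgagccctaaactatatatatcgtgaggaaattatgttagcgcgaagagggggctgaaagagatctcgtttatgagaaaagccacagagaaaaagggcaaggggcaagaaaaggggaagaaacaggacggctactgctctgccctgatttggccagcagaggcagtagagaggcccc
Both strands of each window, 250 bases before to 50 after the start, were searched for GAGGAAG, for the AP-1 sequence TGANTCA, the STAT sequence TTCNNNGAA, the E-box CACGTG and the TATA box TATAAA. The start meant here is that of RefSeq, which for Wfdc17 and Serpinb6b lies inside the GENCODE gene given above. The printed stretches of Wfdc17 and Serpinb6b end 66 and 53 bases before it. The Serpinb6b window held GAGGAAG at 146 and 106 bases before the RefSeq start. The window of Wfdc17 held it on the opposite strand 40 bases before the RefSeq start, and TATAAA 3 bases before it. Both matches lie outside the printed stretch and inside the GENCODE gene of Wfdc17. The window of Wfdc10 held none of the 5. Among 32851 promoter windows of the same length 13.6% hold GAGGAAG, 7.81% TGANTCA, 8.30% TTCNNNGAA, 7.15% CACGTG and 13.6% TATAAA. A match describes letters only.

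Several members are also made by neutrophils, so markers of other cells stand beside these results. Of 14 neutrophil markers 8 had no count in any library, among them Ly6g, Elane, Mpo and S100a9. The summed level of the list was 84.9 to 98.9 CPM in the control and 126 to 188 CPM in the Vav-Cre libraries. Of the 4 tested, S100a8 (2.07 ± 0.35, adjusted p = 0.0203) and Cxcr2 (2.17 ± 0.28, adjusted p = 0.00808) were higher, and S100a8 lost its call without Vav-Cre replicate 1 (0.0704) or control replicates 1 (0.0817), 2 (0.0695) or 3 (0.0545). Mmp8 (0.90 ± 0.31, adjusted p = 0.156) and Csf3r (-0.52 ± 0.24, adjusted p = 0.279) were not called. Lcn2, too low to be tested, stood at 0.276 ± 0.122 CPM in the control and 0.0681 ± 0.0636 CPM in the Vav-Cre libraries. T and NK cell markers summed to 0.945 to 1.80 CPM in the control and 0.704 to 1.19 CPM in the Vav-Cre libraries. Monocyte and interstitial macrophage markers summed to 445 to 571 CPM in the control and 433 to 524 CPM in the Vav-Cre libraries, with Ace (0.66 ± 0.14, adjusted p = 0.0463) among the genes called higher. Ace lost its call without any single library. Epithelial markers summed to 1198 to 1360 CPM in the control and 811 to 1176 CPM in the Vav-Cre libraries. Krt19 made up nearly all of that sum, at 1203 ± 84.0 and 929 ± 173 CPM, followed by Cdh1 at 46.8 ± 10.1 and 66.9 ± 12.1 CPM, while Sftpc stood at 0.969 ± 0.450 and 0.433 ± 0.236 CPM and Scgb1a1 at 1.09 ± 0.250 and 0.632 ± 0.267 CPM. The B cell and dendritic cell lists stayed under 1 CPM in every library. The alveolar macrophage list was high throughout, at 49054 to 75979 CPM in the control and 33143 to 76029 CPM in the Vav-Cre libraries, with 3 of its 12 genes called lower. The lectin receptor gene Siglecf was 1 of them and fell from 651 ± 28.6 to 219 ± 39.0 CPM (-1.57 ± 0.16, adjusted p = 0.00334). The others were Fabp1 and Krt79, and Krt79 lost its call without replicate 1 or 3 of the Vav-Cre or 1 or 2 of the control group. The part of other cells in the members' values was not tested.

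The genes whose levels followed a member most closely over the 6 libraries were named by the mean absolute difference of centred log2 CPM. For Wfdc10 the closest was Apoe, the gene of apolipoprotein E, at 0.185, followed by Fam43a at 0.433. Fam43a stood at 3.42 ± 0.728 CPM in the control and only 0.522 ± 0.0606 CPM in the Vav-Cre libraries, so its distance depends on the prior count. For Wfdc17 it was Plpp3, the gene of a lipid phosphatase, at 0.271, followed by Gm1673 at 0.301. Gm1673 stood at 0.0382 ± 0.0661 CPM in the control and 1.21 ± 0.444 CPM in the Vav-Cre libraries. It passed the filter on low counts only through the latter, so its distance depends on the prior count. Serpinb6b lay closest to Syngr1 at 0.275 and next to Wfdc17 at 0.367. Serpinb9 lay closest to its neighbour Serpinb1b at 0.0943, a gene of low level, at 0.845 ± 0.235 CPM in the control and 1.19 ± 0.378 CPM in the Vav-Cre libraries. The closest gene was Ssr4 for Serpinb1a, at 0.0235, and Cox5b for Cst3, at 0.0265. These distances share the 6 libraries and their scaling, and are a description.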

How the data were processed

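RNA was measured in 6 libraries of sorted alveolar macrophages, grouped by genotype label. The values are gene counts that the authors deposited, whole numbers in 1 table by symbol. Per the submitters' processing notes, STAR, featureCounts, R 4.3.2, DESeq2 1.40.1 and the builds GRCm38.p5 and mm10 were used; the annotation and the strand setting are not named in the sources used here. Libraries were made with a stranded kit, per the labels' protocols.

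Genes were kept with filterByExpr (minimum count 10, minimum total 15), scaled with TMM and tested with edgeR 4.0.16 (glmQLFit and glmQLFTest, two-sided, Benjamini-Hochberg adjustment over all genes tested) in R 4.3.3, and every adjusted p is from that test unless another tool is named. Standard errors were derived from the F statistic. The steps were tested on simulated data. Alternatives were DESeq2 1.42.0, limma 3.58.1 (voom), other scalings and filters, a replicate block, and leaving out each library.

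The members and lists were chosen with earlier results of these data known. Named were all members, of each list the called genes, the most counted gene and the 2 other tested genes with the smallest p, the nearest tested neighbours and the 2 closest genes in level. Some genes so picked are not reported here, although the counts and sums of their lists include them. Ccl3, Pltp and Neurl2, Wfdc18, Prtn3, Nqo2 and the other genes at 0 were named after their values were seen. Coordinates, exon lengths and coding sequences are from GENCODE mouse release 21, and promoters from RefSeq (GRCm38.p6), where 8 of the 10 members matched.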

Additional observations from a re-analysis of the deposited data

How the results depend on the processing

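The direction and call of Wfdc10 and Serpinb6b held under all 13 alternatives. Wfdc17 stayed higher in each but lost its call without control replicate 1 and with the replicate number as a block. The sign of Cst3 turned with unscaled library totals (0.0089) and without Vav-Cre replicate 2, where the leave-one-out values ran from -0.22 to 0.0083; unscaled totals moved the median of all genes to 0.17, and differences there are to be read against it. The 358 calls over all genes became 755 with DESeq2 and 237 under the 5 CPM filter on mean level. Leaving out 1 library gave 76 to 523, the most without Vav-Cre replicate 2 and the fewest without control replicate 1. With unscaled totals 289 genes were higher and 132 lower, against 192 and 166. The 2 whey acidic protein calls ranged from 1 to 2 without 1 library. The 2 clade B calls became 1 under the 5 CPM filter, where fewer genes were tested, and ranged from 1 to 4 without 1 library; with DESeq2, with unscaled totals and without the filter there were 3 such calls, Serpinb6a being the added one. The 0 cystatin calls became 1 with DESeq2 and 1 with unscaled totals, and ranged from 0 to 1. The 3 calls of other inhibitors became 4 with DESeq2, 4 without the filter and 2 with unscaled totals, and ranged from 1 to 2 without 1 library. The 1 target protease call became 3 with DESeq2 and 4 with unscaled totals, and ranged from 0 to 3 without 1 library. Except for the filter, the cause of these moves was not tested.

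The replicate numbers share only a number: same-numbered libraries deviated from their group means with correlations of -0.21, -0.06 and -0.41. With the replicate number as a block, 83 genes were called over all genes, 1 whey acidic protein gene (Wfdc10, not Wfdc17), 0 other inhibitors and 0 target proteases. Depth limits Serpinb8, which no library counted above 3.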
